A study of Mus musculus with 6 samples.

Results

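The 10 genes Fos, Fosb, Fosl1, Fosl2, Jun, Junb, Jund, Batf, Batf2 and Atf3 encode subunits of the transcription factor AP-1. They were taken by symbol from the deposited gene tables, where each symbol matched 1 row, so that all 10 were found among 52550 genes. The RNA was that of splenic plasmacytoid dendritic cells, the interferon-producing dendritic cells, from C57BL/6 mice after 12 hours with the TLR7 agonist R837 (imiquimod). In 3 libraries R837 was the sole stimulus (R837 group), and in the other 3 taurine, an amino sulfonic acid, was given with it (taurine group). R837 is therefore shared by both groups, libraries without it were not analysed here, and the taurine dose is not given in the sources used here. No label says whether the replicates of a group are separate mice or cultures, so the p-values measure the spread between these libraries, which may be technical.

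AP-1 is a dimer of proteins that share a basic DNA-contacting region and a leucine zipper. JUN proteins pair with each other or with FOS proteins, whereas FOS proteins need a JUN partner. BATF proteins lack the transactivation domains of FOS and, with a JUN partner, bind composite elements together with IRF4 or IRF8. ATF3 is a stress-induced member that can repress or activate, depending on its partner. In dendritic cells Toll-like receptor signals reach these genes through the MAP kinases JNK, ERK and p38, and Fos, Fosb, Jun and Junb are classical immediate early genes whose transcripts are short-lived.

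Fosb fell about 10.9-fold with taurine, the largest change of any AP-1 subunit gene that was tested. Within the JUN family the members went opposite ways: Jun fell, and Junb and Jund rose. Atf3 rose as well. Fos, Fosl2, Batf and Batf2 did not pass the test, and Fosl1 was below the floor for testing. Of the 9 tested genes 3 were thus called higher and 2 lower at an adjusted p under 0.05 (limma with an abundance trend, Benjamini-Hochberg over 15265 genes), where 3.75% of all tested genes were called higher and 2.66% lower, or 6.41% in either direction. The 3 libraries of a group lay wholly above or below those of the other for 7 of the 9 genes, against 29.6% of all tested genes. The median log2 change of the 9 genes was 0.20, and that of all tested genes was -0.011. These genes passed a floor on low values and were put together with earlier results of these data known, so the counts are a description. Rescaling without the 50 most abundant genes moved the split over all genes from 573 higher and 406 lower to 462 and 586, with 2 members higher and 2 lower. In bulk RNA, fewer cells of a type and less RNA per cell cannot be told apart. Levels are normalized counts (reads times a scaling factor for each library). Changes are differences of log2(normalized count + 1), taurine group minus R837 group.

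The DNA just upstream of these genes is shown for 4 members that are near in function and differ in direction, Fosb and Jun, which fell, Junb, which rose, and Fos, which did not pass the test. Each run covers 250 bases before and 50 bases after the RefSeq transcript start on GRCm38.p6, written 5′ to 3′ on the gene's own strand. Capitals mark the matches to 5 searched motifs.
Fosb, chr7:19309996-19310295, minus strand: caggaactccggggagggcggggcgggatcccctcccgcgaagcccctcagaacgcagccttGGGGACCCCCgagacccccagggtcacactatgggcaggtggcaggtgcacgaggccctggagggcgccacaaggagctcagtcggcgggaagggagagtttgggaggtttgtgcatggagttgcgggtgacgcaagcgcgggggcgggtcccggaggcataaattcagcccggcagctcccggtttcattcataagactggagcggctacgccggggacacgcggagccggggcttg
Fos, chr12:85473640-85473939, plus strand: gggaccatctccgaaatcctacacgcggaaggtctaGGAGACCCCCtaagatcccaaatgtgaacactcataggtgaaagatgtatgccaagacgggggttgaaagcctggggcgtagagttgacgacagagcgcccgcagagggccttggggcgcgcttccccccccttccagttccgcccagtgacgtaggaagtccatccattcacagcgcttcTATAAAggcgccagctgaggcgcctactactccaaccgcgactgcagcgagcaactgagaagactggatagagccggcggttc
Jun, chr4:95052173-95052472, minus strand: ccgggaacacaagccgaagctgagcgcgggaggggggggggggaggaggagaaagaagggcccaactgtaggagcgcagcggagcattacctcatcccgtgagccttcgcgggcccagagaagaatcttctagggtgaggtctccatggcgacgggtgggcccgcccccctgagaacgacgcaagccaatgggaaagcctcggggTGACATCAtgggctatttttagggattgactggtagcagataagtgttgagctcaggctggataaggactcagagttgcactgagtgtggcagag
Junb, chr8:84978699-84978998, minus strand: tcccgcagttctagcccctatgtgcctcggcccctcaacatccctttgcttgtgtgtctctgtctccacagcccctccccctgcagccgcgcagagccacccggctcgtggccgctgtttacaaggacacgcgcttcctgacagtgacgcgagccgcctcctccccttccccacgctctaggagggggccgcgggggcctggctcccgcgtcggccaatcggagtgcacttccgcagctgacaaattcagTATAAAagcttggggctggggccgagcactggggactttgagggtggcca
The motifs were an AP-1 site (TGANTCA), a CRE-like site (TGACNTCA), the SRF CArG box, the NF-kB site and, on the gene's strand, a TATA box (TATAAA). All but the last were searched on both strands, and no matches to different motifs overlapped in the 4 runs. Jun held a CRE-like site 45 bases before its start, an element that 8.83% of the 32851 tabulated promoters hold. This element of the Jun promoter is known as a binding site for JUN and ATF proteins. Fosb and Fos each held an NF-kB match, 188 and 214 bases before the start, as did 4.51% of all promoters. A TATA box lay 33 bases before the start of Fos and at the tabulated start of Junb, and 8.32% of promoters held one. None of the 8 members present in the table held TGANTCA or a CArG box in this window, against 7.81% and 1.63% of all promoters. For Jund the tabulated start lies upstream of the gene as the files place it, so its window does not adjoin that gene. A match, or the lack of one, describes letters in this window and no more.

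Among the 3 FOS genes tested, Fosb was the one that passed the test. FOSB is a FOS-type partner of JUN proteins whose transcript is induced within minutes by many stimuli (ENSMUSG00000003545.3, chromosome 7, 19302696 to 19310051, minus strand). Its normalized counts were 168, 195 and 292 in R837 replicates 1, 2 and 3. They were 23.2, 28.6 and 8.49 in taurine replicates 1, 2 and 3. Every taurine library lay far below every R837 library. The means were 218 ± 64.9 and 20.1 ± 10.4 (SD, n = 3), with a log2 change of -3.49 ± 0.45 (SE, adjusted p = 0.00675 by limma). This was fall number 13 in size among the 15265 tested genes and number 8 among the 406 called lower. Behind it stood 661 recovered reads in the R837 group and 61 in the taurine group. Exons of Fosb overlap no other gene in GENCODE M21. The call held with any 1 library left out, with log2 changes from -3.81 to -3.00, and was lost only in limma without the abundance trend (adjusted p = 0.0844).

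Fos itself (ENSMUSG00000021250.13, chromosome 12, 85473890 to 85477273, plus strand) did not follow Fosb. The values of Fos were 672, 645 and 649 with R837 and 758, 846 and 801 with taurine, so the groups did not overlap and the taurine libraries were the higher ones. The log2 change was 0.29 ± 0.10 (SE, 95% interval 0.052 to 0.53 before adjustment), and the adjusted p of 0.134 by limma missed the threshold. The ratio of Fos to Fosb normalized counts was 3.18 ± 0.894 with R837 (SD, n = 3) and lay between 29.6 and 94.4 in the taurine libraries. Fosl2 (FRA-2), a FOS relative without a strong transactivation domain, had 367, 451 and 402 with R837 and 464, 373 and 321 with taurine. Its groups overlapped, and its log2 change of -0.087 had an interval from -0.47 to 0.30 (adjusted p = 0.803 by limma), so a fall to 0.721-fold or a rise to 1.23-fold lies within it. Fosl1 (FRA-1) stood at 7.55, 11.6 and 18.7 with R837, and at 8.08, 4.76 and 0 with taurine, where 3 reads correspond to 3.18 in the library at 0. It was below the floor of 10 in at least 3 libraries, so it was not among the tested genes. Without that floor limma gave a log2 change of -1.78 (adjusted p = 0.382), from 38 and 13 recovered reads. Of the 2033 exon bases of Fosl1, 1163 are shared with Ccdc85b on the other strand, which had 173 ± 31.9 with R837 and 163 ± 28.4 with taurine. The level of Fosl1 is thus uncertain, and its coordinates in the deposited data differ from those of GENCODE M21.

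**Figure D1:**
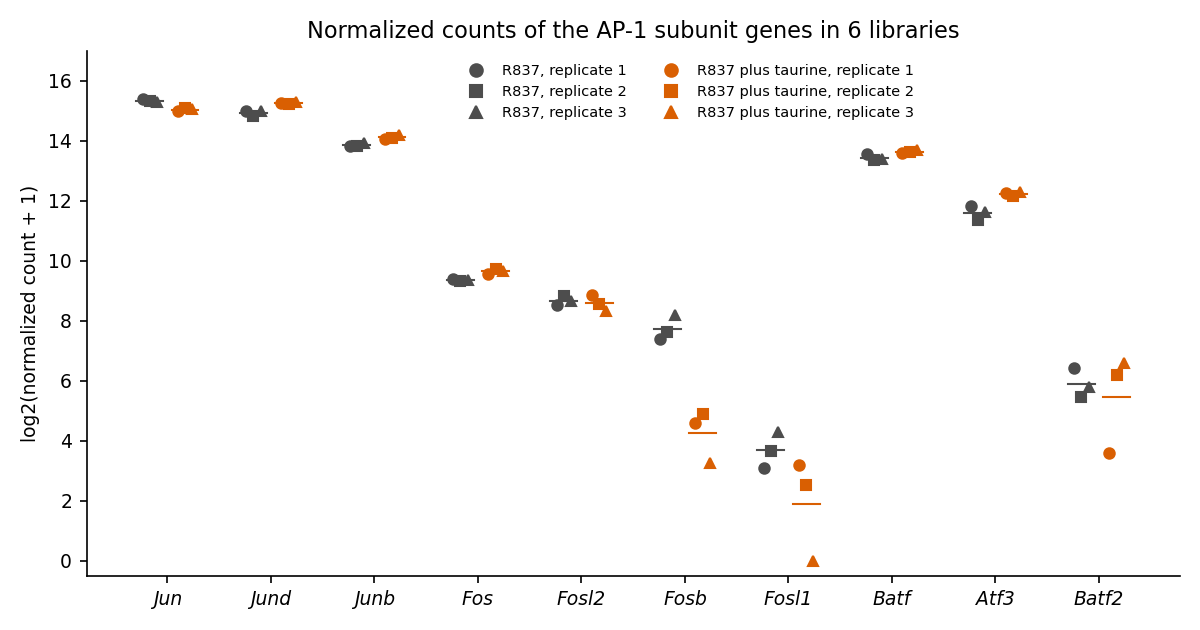
Points give log2(normalized count + 1) of each AP-1 subunit gene in each of the 6 libraries (grey, R837; orange, R837 plus taurine; marker shape, replicate number), and short lines give the mean of 3 libraries. Fosb shows the widest gap, from 168 to 292 with R837 and from 8.49 to 28.6 with taurine, while Jun lies lower and Jund, Junb and Atf3 lie higher with taurine.

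The JUN genes were far more abundant than the FOS genes, and they parted with taurine. Jun, the prototype subunit and a target of JNK (ENSMUSG00000052684.4, chromosome 4, 95049034 to 95052222, minus strand, a gene with 1 exon), had 42675, 41351 and 40186 with R837. It had 32647, 34509 and 33996 with taurine. All 3 taurine libraries were lower than any R837 library. The means were 41404 ± 1245 and 33717 ± 961 (SD, n = 3), a 1.23-fold fall, with a log2 change of -0.30 ± 0.05 (SE, adjusted p = 0.0192 by limma). The call was kept without R837 replicate 3 (adjusted p = 0.0131), while without any other library the adjusted p lay between 0.0601 and 0.0863, with log2 changes from -0.31 to -0.27. Exons of Jun share 232 bases with the antisense gene Junos, which had 1975 ± 49.3 with R837 and 1624 ± 94.2 with taurine. With these reads added the log2 change of Jun was -0.30. Junos is scarce beside Jun and had a log2 change of -0.28 itself, so this sum could hardly differ.

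Junb, a weaker activator that can dampen JUN activity (ENSMUSG00000052837.6, chromosome 8, 84974484 to 84978718, minus strand), went the other way. It had 14653, 14447 and 15548 with R837 and 17243, 17624 and 18494 with taurine, with every taurine library above every R837 library. The means of 14883 ± 585 and 17787 ± 641 (SD, n = 3) differed 1.20-fold (log2 change 0.26 ± 0.06 (SE), adjusted p = 0.0449 by limma). This was the call nearest to the threshold. It held in 6 of the 12 alternatives that keep all libraries, and was lost, for example, after a trend on exon length and GC was taken out of every library (0.17, adjusted p = 0.0709) and under quantile normalization (0.20, adjusted p = 0.0933). It also held without R837 replicate 3 (adjusted p = 0.0248), while the adjusted p without any other library lay between 0.0905 and 0.162. Exons of Junb share 173 bases with Prdx2, which had 598 ± 76.0 with R837 and 684 ± 84.6 with taurine.

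Jund, the JUN protein that is commonly expressed in resting cells (ENSMUSG00000071076.6, chromosome 8, 70698949 to 70700616, plus strand), also rose. Its values were 32693, 29060.1 and 32623 with R837. With taurine they were 38745, 38021 and 39920.1, again all above the R837 libraries. The means of 31458 ± 2077 and 38895 ± 958 (SD, n = 3) differed 1.24-fold (log2 change 0.31 ± 0.06 (SE), adjusted p = 0.0282 by limma). The call held without R837 replicate 3 (adjusted p = 0.0210), and without any other library the adjusted p lay between 0.0592 and 0.107, with log2 changes from 0.25 to 0.34. It was lost under quantile normalization (0.23, adjusted p = 0.0726), without the floor on low values (adjusted p = 0.0625) and in limma without the trend (adjusted p = 0.160). The level of Jund is uncertain, because its exons share 877 bases with the antisense gene Gm11175. That gene was listed at 21628 ± 1409 with R837 and 26950.0 ± 466 with taurine, and the strand setting of the counting is not given in the sources used here. With both genes added the log2 change was 0.31. Gm11175 had a log2 change of 0.32 itself, so this sum could hardly differ, and it may count shared reads more than once.

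**Figure D2:**
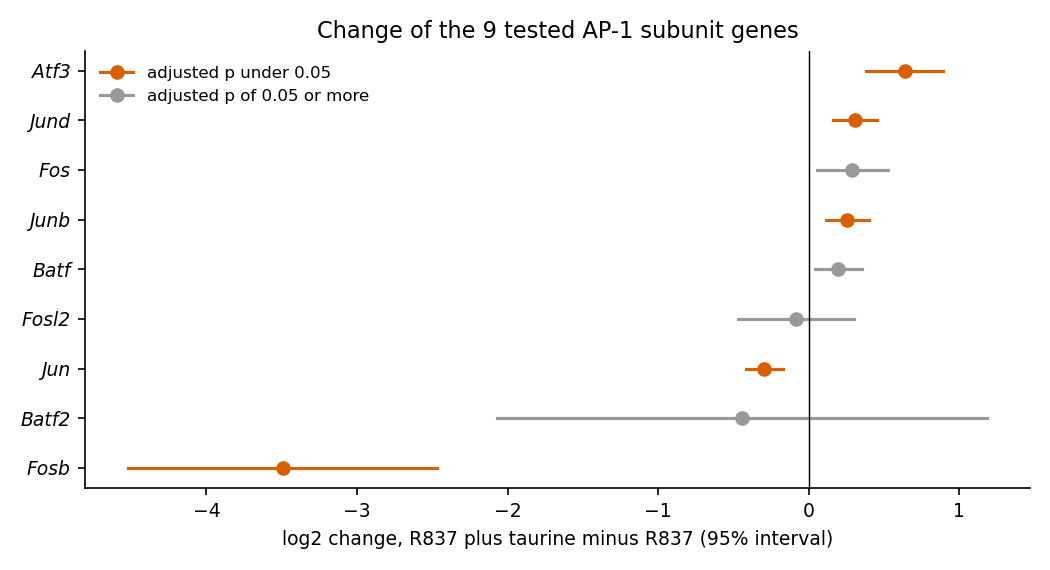
Points give the log2 change (taurine group minus R837 group, on the log2(normalized count + 1) scale) of the 9 tested AP-1 subunit genes and bars give its 95% interval before adjustment, with orange for an adjusted p under 0.05. Fosb at -3.49 lies apart from the other genes, Jun lies below 0, and Junb, Jund and Atf3 lie above 0.

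The make-up of the JUN transcripts differed between the groups, while their summed normalized counts overlapped. Per kilobase of exon, which allows levels of different genes to be set side by side, Jun made up 34.0%, 35.4% and 32.4% of the JUN family with R837 and 25.0%, 26.2% and 25.0% with taurine. Jund made up 49.2% ± 1.47 with R837 and 56.0% ± 0.749 with taurine, and Junb 16.9% ± 0.623 and 18.6% ± 0.279 (SD, n = 3). None of these 3 shares overlapped between the groups. All 3 rest on the level of Jund, which its overlap with Gm11175 leaves uncertain. The ratio of Jun to Junb normalized counts was 2.79 ± 0.177 with R837 and 1.90 ± 0.0600 with taurine (SD, n = 3). Summed over the JUN genes, the normalized counts ranged from 84858 to 90020.5 with R837 and from 88635 to 92410.3 with taurine, and these ranges overlapped. This sum is not per kilobase, so it gives more weight to Jun, whose exons are the longest of the 3. Summed per exon kilobase instead, the JUN genes lay higher in every taurine library than in any R837 library. In the FOS family the share of Fosb per kilobase was 9.62% ± 2.57 with R837 and 0.825% ± 0.407 with taurine, and that of Fos was 77.1% ± 3.40 and 88.3% ± 2.80. These shares and sums restate the changes of single genes and were not tested.

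**Figure D3:**
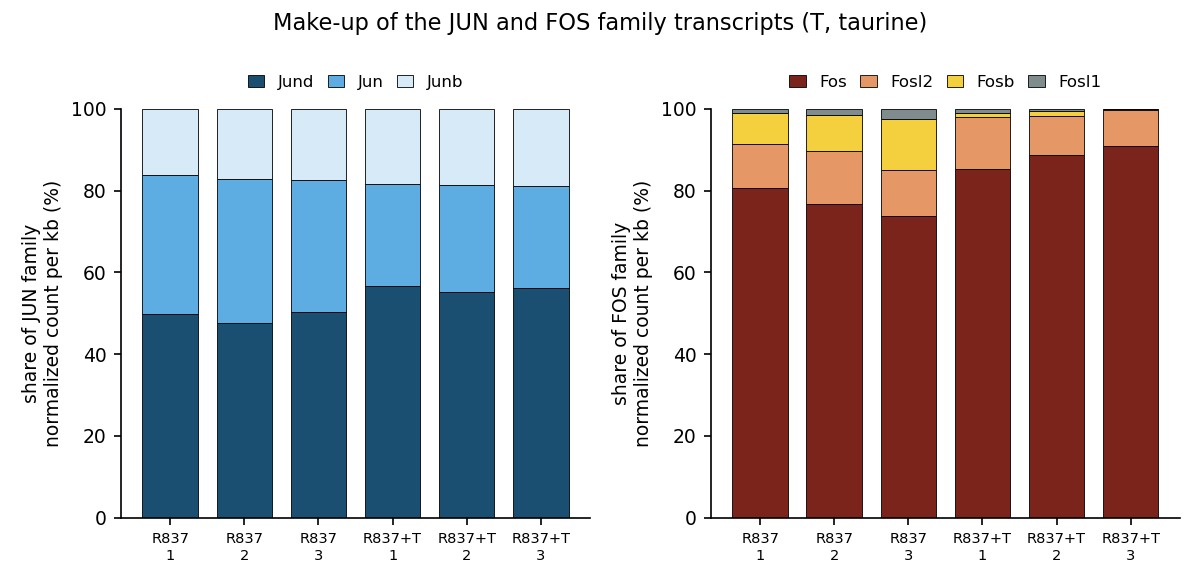
Stacked bars give, for each of the 6 libraries, the share in percent of each gene in the summed normalized count per exon kilobase of the JUN family (left) and the FOS family (right). The Jun part is smaller in all taurine libraries (25.0% to 26.2%, against 32.4% to 35.4%), and the Fosb part is 0.825% on average with taurine against 9.62% with R837.

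Atf3 showed the largest rise. ATF3 is a stress-induced bZIP factor known to restrain Toll-like receptor driven cytokine genes (ENSMUSG00000026628.13, chromosome 1, 191170296 to 191218039, minus strand). It had 3591, 2653 and 3125 with R837 and 4944, 4536 and 5013 with taurine, and the groups did not overlap. The means of 3123 ± 469 and 4831 ± 258 (SD, n = 3) differed 1.55-fold (log2 change 0.64 ± 0.11 (SE), adjusted p = 0.0173 by limma). The call was lost without R837 replicate 2 (0.53, adjusted p = 0.0627), without taurine replicate 1 (0.62, adjusted p = 0.0626) and without taurine replicate 3 (0.61, adjusted p = 0.0712), and was kept without each of the other 3 libraries.

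Batf, which with JUN proteins and IRF4 or IRF8 controls lymphocyte and dendritic cell genes (ENSMUSG00000034266.6, chromosome 12, 85686669 to 85709087, plus strand), was abundant and differed little. It had 11959.6, 10567 and 10817 with R837 and 12346, 12685 and 13156 with taurine. The groups did not overlap, but the log2 change of 0.20 ± 0.07 (SE, 95% interval 0.039 to 0.36 before adjustment) did not pass (adjusted p = 0.127 by limma), and it was 0.052 with the length and GC trend removed (adjusted p = 0.694). Batf2, an interferon-inducible relative (ENSMUSG00000039699.13, chromosome 19, 6140983 to 6172476, plus strand), was scarce and scattered, with 84.9, 43.3 and 54.1 with R837 and 11.1, 71.4 and 94.5 with taurine. Taurine replicate 1 was the lowest and taurine replicate 3 the highest of the 6 libraries. The log2 change was -0.44 (95% interval -2.07 to 1.18, adjusted p = 0.759 by limma), but 0.48 without taurine replicate 1, and 0.060 with the reads of Arl2 added, whose exons share 51 bases with those of Batf2. No direction can be given for Batf2.

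Ordered by normalized count per exon kilobase in the R837 group, the members ran Jund (18860.0), Jun (12983), Batf (7905), Junb (6468), Atf3 (1449.9), Fos (279), Fosl2 (42.0), Fosb (35.0), Batf2 (24.1) and Fosl1 (6.20). Neighbours did not overlap in their 3 libraries, other than Fosl2 with Fosb and Fosb with Batf2. The first place of Jund rests on a level that its overlap with Gm11175 leaves uncertain. In the taurine group the order was the same, except that Fosb, at 3.22, came after Batf2, at 23.4, and the ranges of Fosl2 and Batf2, Batf2 and Fosb, and Fosb and Fosl1 overlapped. FOS family transcripts were thus scarce at 12 hours in both groups, at 0.754% ± 0.0387 of the summed level per kilobase of the 10 genes with R837 and 0.725% ± 0.0408 with taurine (SD, n = 3).

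**Figure D4:**
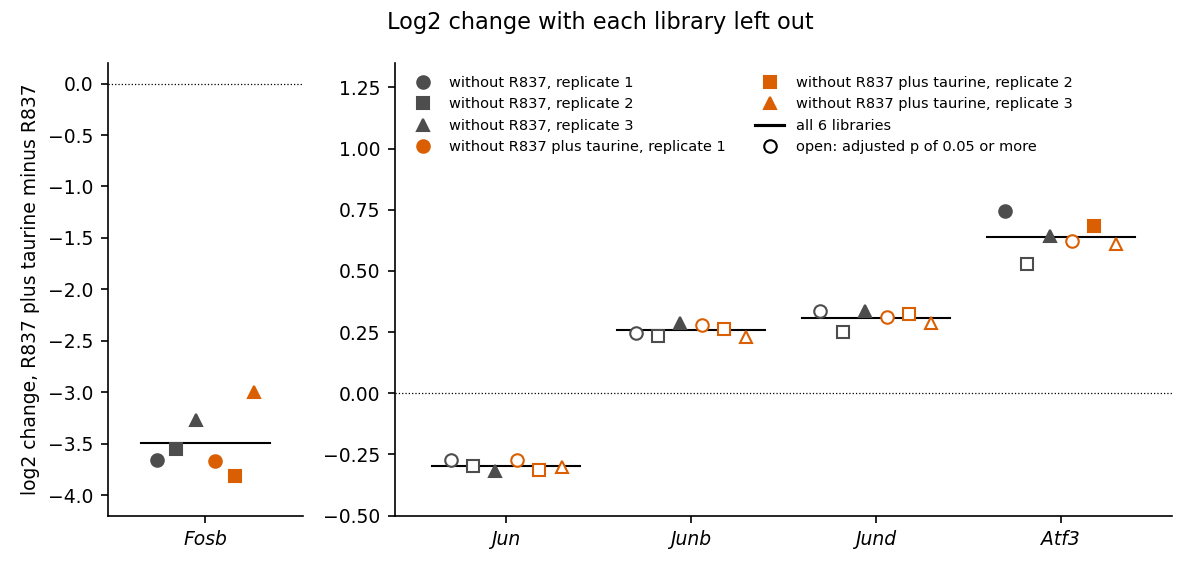
Each marker gives the log2 change of a called member with 1 library left out (grey, an R837 library; orange, a taurine library; shape, replicate number; open, adjusted p of 0.05 or more), and lines give the value with all 6 libraries; the left and right panels have different scales. Fosb keeps its call in all 6 fits and Atf3 in 3, while Jun, Junb and Jund keep theirs only without R837 replicate 3, with every direction as with all libraries. Without that library calls over all genes rose too, from 573 higher and 406 lower to 767 and 710.

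Partners and regulators of AP-1 were read from fixed lists. Over all tested genes 3.75% were called higher and 2.66% lower, which is the background for the counts of called genes in these lists. Of 19 tested bZIP factors that pair or compete with AP-1, 1 was called higher and 1 lower, with a median log2 change of -0.055. Atf7, an ATF2-type factor that JNK and p38 modify, fell from 2216 ± 111 to 1579.9 ± 223 (log2 change -0.50, adjusted p = 0.0424 by limma). Ddit3 (CHOP), a factor of the integrated stress response, rose from 697 ± 67.0 to 969.8 ± 27.7 (log2 change 0.48, adjusted p = 0.0410 by limma). With the length and GC trend removed Atf7 no longer passed (-0.33, adjusted p = 0.114), and without the floor on low values neither did (adjusted p = 0.0683 for Atf7 and 0.0571 for Ddit3). Ddit3 also missed under the rescaling (adjusted p = 0.0502). With R837 replicate 3 left out each kept its call, while without any other library the adjusted p ran from 0.0530 to 0.148 for Atf7 and from 0.0901 to 0.144 for Ddit3. The IRF partners of BATF were not called. Irf8 had 103184 ± 1949.9 with R837 and 107730.5 ± 667 with taurine (log2 change 0.062, adjusted p = 0.451), and Irf4 had 5652 ± 330.2 and 5487 ± 190.0 (log2 change -0.042, adjusted p = 0.781), and neither had an unadjusted p under 0.05 or a call in edgeR or DESeq2.

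None of 25 tested MAP kinase cascade genes was called by limma or edgeR, 3 had an unadjusted p under 0.05, as did 23.7% of all tested genes, and the median log2 change was 0.0020. The 2 with the smallest p were Map2k1 (MEK1), with 9496 ± 612 and 11380.3 ± 178 (log2 change 0.26, adjusted p = 0.0565), and Map3k2, with a log2 change of -0.34 (adjusted p = 0.146). Map2k1 passed in DESeq2 on the recovered reads (adjusted p = 0.0163), under TMM scaling (0.0487) and in 2 other alternatives. Of 15 serum response and CREB-type activators of the Fos and Jun promoters none was called by limma or edgeR. An unadjusted p under 0.05 was seen for 7, 1 higher and 6 lower with taurine, where 11.6% and 12.2% of all tested genes lay. The kinase gene Rps6ka3 (RSK2) had a log2 change of 0.42 (adjusted p = 0.0655) and the factor Mef2d of -0.38 (adjusted p = 0.0704), and each passed in DESeq2 (adjusted p = 0.00733 and 0.0124). Of 8 genes for the turnover of JUN and FOS proteins 1 was lower: Trib1, a pseudokinase that recruits the ubiquitin ligase COP1, fell from 14614 ± 982 to 11860.2 ± 246 (log2 change -0.30, adjusted p = 0.0390 by limma). Trib1 missed without the floor on low values (adjusted p = 0.0664). It kept its call without R837 replicate 3 (adjusted p = 0.0162), and the adjusted p without any other library lay between 0.0964 and 0.133.

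Transcripts widely used as AP-1 targets gave 3 higher and 0 lower of 26 tested, where 3.75% and 2.66% of all tested genes were called. Their median log2 change was 0.14. Mmp13 (collagenase 3) rose from 66.4 ± 19.2 to 189 ± 49.6 (log2 change 1.49, adjusted p = 0.0242 by limma). Hmox1 (heme oxygenase 1), which NRF2 also drives, rose from 2598 ± 391 to 4641 ± 601 (log2 change 0.84, adjusted p = 0.0121 by limma). The growth arrest gene Gadd45b rose from 31338 ± 1945 to 38584 ± 1032 (log2 change 0.30, adjusted p = 0.0283 by limma). Hmox1 lost its call without R837 replicate 2 (adjusted p = 0.0589) and without taurine replicate 3 (0.0504). Mmp13 kept its call without R837 replicate 3 or taurine replicate 2, and Gadd45b without R837 replicate 1 or 3. Without any other library the adjusted p lay between 0.0513 and 0.0964 for Mmp13 and between 0.0728 and 0.113 for Gadd45b. Gadd45b also missed the threshold under quantile normalization (0.21, adjusted p = 0.0598), without the floor on low values (adjusted p = 0.0625) and with the length and GC trend removed (0.16, adjusted p = 0.102), and Mmp13 without the floor (adjusted p = 0.0548). At an unadjusted p under 0.05 there were 8 higher targets and 2 lower ones, where 11.6% and 12.2% of all tested genes lay. The 2 lower ones, named after their values were seen, were Vegfa (log2 change -0.35) and Cd44 (-0.28). DESeq2 called 6 targets higher and 2 lower. Over all genes it called more than limma, 934 higher and 908 lower of 23393 with a p-value, low genes included. Among 22 tested early response genes 3 were higher and 1 lower, against the same 3.75% and 2.66% of all tested genes, with a median of -0.035. Hspa1a and Hspa1b are near-identical inducible HSP70 genes whose reads cannot be told apart with certainty, so they may not be separate calls. They had log2 changes of 0.69 and 0.76 (adjusted p = 0.00296 and 0.00238 by limma), and no single library was needed for either call. The ERK phosphatase gene Dusp5 rose from 25554 ± 1201 to 34149 ± 1894 (0.42, adjusted p = 0.0121 by limma), and Myc fell from 4063 ± 355 to 3008 ± 42.8 (-0.43, adjusted p = 0.0244 by limma). Dusp5 missed the threshold without R837 replicate 2 (adjusted p = 0.0648), taurine replicate 2 (0.0522) or taurine replicate 3 (0.0504). Myc passed without R837 replicate 3 (0.0109) and stood at 0.0768 or more without any other library.

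The genes most like a member across the 6 libraries were sought for the 3 members with the smallest p, by the root mean square difference of centred log2 values over 10712 genes with a mean of at least 100. For Jun these were Washc2, Eif4g3 and AI506816 (differences 0.00963, 0.0184 and 0.0231), and for Atf3 they were Tmem140, Nos2 and Mlkl (0.0382, 0.0460 and 0.0586). Fosb had no close match among these genes: the nearest, Dleu2, Fignl1 and Olfr164, differed by 1.04, 1.05 and 1.09. The measure counts the size of a change as well as its shape, so genes with a much smaller fall cannot lie near Fosb. Genes with a mean under 100 were not searched.

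The libraries held 33585080 to 38392654 reads on genes, and no library repeated another within sampling noise. Markers of plasmacytoid dendritic cells were present, with all 15 above a mean of 10 and a sum of 399549 to 435801 with R837 and 418484 to 430738 with taurine. Of these 15, 5 lay lower with taurine without overlap, as did 15.0% of all tested genes. Among them were Tcf4 (14525 to 18113 and 11143 to 11633) and Runx2 (14160 to 14794 and 9196 to 9986), both transcription factors of this lineage. Another 4 lay higher without overlap, as did 14.6% of all tested genes, such as Bst2 (37162 to 41990 and 47686 to 55624) and Ly6d (94008 to 101660 and 111439 to 121261). Summed markers of conventional dendritic cells were 16119 to 17363 with R837 and 14126 to 14478 with taurine, and 2 of these genes, Clec9a and Itgax, lay lower without overlap. Those of neutrophils (1172 to 1707 and 1717 to 2079) and erythroid cells (86.6 to 126 and 162 to 239) were higher with taurine in every library, with 1 gene of each list not overlapping, Ngp (316 to 334 and 519 to 576) and Hba-a1 (26.0 to 38.7 and 67.6 to 106). Summed monocyte and macrophage markers (7339.9 to 7573 and 7304 to 9018) and summed B cell markers (1454 to 2513 and 1647 to 2399.7) overlapped. Single genes did not all do so: of 8 monocyte and macrophage genes 4 lay higher with taurine without overlap and 2 lower. Fcgr1 was among the higher ones (920 to 1038 and 1609 to 2124) and Cd14 among the lower ones (1063 to 1198 and 958 to 985). T cell markers summed to 46.2 to 75.1 and 65.8 to 129, with Cd3d and Cd3g at 0, and NK cell markers to 52.1 to 79.3 and 29.7 to 50.4, with Gzma and Prf1 at 0. Among these scarce genes Lck lay higher and Klrb1c lower without overlap. Endothelial and stromal markers, with Col1a1 at 0, gave 100156 to 119294 and 83027 to 89072, nearly all from Kdr, Cdh5 and Pecam1. Kdr and Cdh5 lay lower without overlap, and Pecam1 overlapped. The part of these differences in the changes of the AP-1 genes was not tested.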

How the data were processed

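The deposited files give a signal value for each gene, a normalized count per the file headers. Within a library 100% of values were whole multiples of a single step (tolerance 0.001 of a read), and these multiples are called reads here. Since they gather at 4 and 8, they may not be single sequenced reads, which was not tested. HISAT2 and StringTie appear in the submitters' processing notes, as do mm8 and mm10, without roles. The sources used here give neither the counting tool nor its strand setting. Coordinates equal those of GENCODE M21 (mm10) for 95.2% of the shared gene identifiers, and exon lengths come from M21.

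limma 3.58.1 in R 4.3.3 was fitted to log2(normalized count + 1) of the 15265 genes with at least 10 in at least 3 libraries, with 1 group term and an abundance trend (two-sided). The pseudocount understates changes of low genes. edgeR 4.0.16 and DESeq2 1.42.0 were run on the recovered reads as alternatives, and edgeR called 571 genes higher and 379 lower. Intervals cover the spread between libraries. The fit was tested on simulated data.

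The genes and lists were chosen with earlier results of these data known. Every member is named, with the 4 called genes of smallest p of each list, or else the 2 of smallest p. For Map2k7, with 2 rows, the more abundant was used. Same-numbered libraries of the groups did not deviate together over all tested genes (r between -0.0434 and -0.00264). Such correlations cannot tell whether a number marks a shared mouse or day, and no label says so, so the fit was not paired.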

Additional observations from a re-analysis of the deposited data

How the results depend on the processing

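Changes of the members and named genes kept their direction and side of the threshold in 353 of 453 values under alternatives, 87 lost and 8 gained the call, and 5 turned direction. Those 5, none called in the fit as designed, were Batf2 without taurine replicate 1 (0.48) and with overlapping genes added (0.060), Fosl2 without taurine replicate 3 (0.038), Irf8 under quantile normalization (-0.16) and Irf4 with the length and GC trend removed (0.035). With 1 library left out Batf2 ran from -1.01 to 0.48 and Fosl2 from -0.23 to 0.038.

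Against 3 members higher and 2 lower, limma without the trend called 0 and 0 (3217 of all genes had an unadjusted p under 0.05), and edgeR and DESeq2 called 3 and 2. Without a filter on low values, and under quantile normalization, 1 member was higher. With 1 library left out 0 to 3 were higher and 1 to 2 lower. The cause was not tested.

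Over all genes, against 573 higher and 406 lower, no filter gave 333 and 214, limma without the trend 1 and 3, and DESeq2 934 and 908. With 1 library left out the numbers ran from 101 to 767 and from 33 to 710. The 767 and 710 came without R837 replicate 3, and leaving out any other library gave at most 225 and 112. R837 replicate 3 also differed most within its group. The chi-square of recovered reads per degree of freedom was 42.4 and 38.1 against replicates 1 and 2, and 21.1 between those. The reason was not tested. Rescaling without the 50 most abundant genes gave 462 and 586, so 44.1% of calls were higher, against 58.5%. A gene's log2 deviation from its mean correlated with exon length differently by group (Spearman 0.044 to 0.147 in R837 libraries, -0.203 to -0.100 in taurine libraries). With GC it was -0.159 to -0.055 with R837 and -0.044 to 0.234 with taurine. With these trends removed 624 genes were called higher and 315 lower. The source of the trends was not tested. The replicate block, on numbers that no label ties to shared mice or days, gave 365 and 250, and of the members it changed only the call of Junb (adjusted p = 0.0639). Of 252 list counts 60 moved, either by over 1.5 times or to or from 0, which can be a shift of 1 gene. All 10 called genes named from the lists missed the threshold in limma without the trend (adjusted p from 0.0844 to 0.162). Under the block Ddit3, Trib1, Mmp13, Gadd45b and Myc also missed it. Fosl1 had 13 recovered reads in the taurine group, and Batf2 scattered between taurine libraries (11, 75 and 89 recovered reads).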

Other observations

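A pair of other early response genes with few reads stood out after their values were seen. Egr3, a zinc finger factor, had normalized counts of 38.7, 35.6 and 33.3 with R837 and 9.09, 0 and 21.2 with taurine, and its adjusted p of 0.176 by limma missed the threshold. Egr2 had 16.0, 0 and 4.16 with R837 and was listed at 0 in all 3 taurine libraries, too few to test. Egr1 showed no such gap, with 48.5 ± 6.07 and 47.9 ± 11.3 (SD, n = 3).

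Nr4a3, an orphan nuclear receptor gene, had 29013, 14418 and 33810 with R837 and 12336, 35661 and 35934 with taurine, so that 1 library of each group lay far below the others.

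The recovered reads of scarce genes gathered at multiples of 4. Between 705 and 784 genes of a library stood at 4 reads, against 301 to 361 at 3 and 418 to 499 at 5. Likewise 402 to 433 stood at 8, against 161 to 172 at 7 and 217 to 259 at 9. Fosb in taurine replicate 3 stood at 8 reads.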
